A study of Mus musculus with 6 samples.

Results

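The genes of the lysosome described here are 48 genes for its proton pump, its hydrolases with their helper proteins, and its membrane proteins, chosen by name. Every probe set whose platform annotation gave exactly 1 gene symbol on that list was taken, which found 105 of the 45101 probe sets. They belonged to 46 of the 48 genes, out of 18194 genes with such a probe set. Atp6v0c and Cd63 had no probe set of that kind and were not analysed here. The samples were 3 arrays of OVX + E2 and 3 arrays of OVX, all from female C57BL/6 mice whose ovaries were removed at 4 months of age. OVX + E2 mice carried pellets releasing 0.18 mg of 17β-estradiol (E2) over 60 days, and OVX mice carried placebo pellets for the same time. Ovariectomy was therefore common to both groups, and ovary-intact mice were not analysed here. Whether every array held RNA from a different mouse was not stated in the sources read here, so that p-values reflect only the spread among these samples, part of which may be technical.

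Lysosomes are acidic compartments in which proteins, glycogen, glycolipids and worn-out organelles are broken down. The V-ATPase pumps protons into them, and most of the enzymes inside work only at the low pH that this creates. In muscle, lysosomes receive cargo from autophagy and turn over glycogen, and inherited loss of lysosomal genes such as Gaa or Lamp2 causes disease of skeletal muscle and heart. Many lysosomal genes are targets of TFEB and related transcription factors, which recognise a DNA element called CLEAR in their promoters.

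The tissue is given as soleus in the description of the study and as left ventricle in the sample labels. Of 15 skeletal muscle marker genes, 15 lay in the brightest 5% of probe sets, when each gene was read by its brightest probe set. Of 13 measured heart marker genes, 2 did (Casq2 and Actc1, which skeletal muscle also expresses), and Myh6, the main myosin of the mouse ventricle, stood at the 66.1th percentile. These lists set skeletal muscle against heart, and do not tell soleus from other skeletal muscles. The values are log2 values in arbitrary units, array medians lay between 6.90 and 6.93, and precision is limited by the number of arrays. Brightness is a property of a probe set, so that levels of different genes are not set against each other. Differences are OVX + E2 minus OVX, so that a value below 0 was lower with E2, and SE is the standard error of the limma fit.

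The DNA around the start sites is shown first, because it does not rest on the array values. CLEAR is known from promoters of lysosomal genes, as said above, so that its share in this list is a description and not independent support. In RefSeq promoters of assembly GRCm38.p6, which run from 250 bases before to 50 bases after a start site, 40 of the 48 genes had an entry. The 8-letter core of CLEAR, TCACGTGA, reads the same on both strands and contains the E-box CACGTG. It was found in 8 of the 40 genes, against 1.12% of all 27025 genes in the promoter table and 6.98% of 86 other lysosomal genes. The windows that hold it are given below on the strand of the gene, with the core in capitals.
Ctsa (chr2:164833744-164833800, plus strand): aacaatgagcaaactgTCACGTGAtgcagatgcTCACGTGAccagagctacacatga
Gla (chrX:134601177-134601249, minus strand): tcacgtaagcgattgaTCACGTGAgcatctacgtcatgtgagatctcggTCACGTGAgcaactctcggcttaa
Ctsd (chr7:142387903-142387942, minus strand): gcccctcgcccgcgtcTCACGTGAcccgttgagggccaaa
Cln3 (chr7:126583335-126583374, minus strand): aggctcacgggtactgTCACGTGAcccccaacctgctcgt
Mcoln1 (chr8:3500457-3500496, plus strand): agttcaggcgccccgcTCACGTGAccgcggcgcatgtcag
Atp6v1a (chr16:44139368-44139407, minus strand): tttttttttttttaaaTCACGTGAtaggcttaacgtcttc
Atp6v0d1 (chr8:105566045-105566084, minus strand): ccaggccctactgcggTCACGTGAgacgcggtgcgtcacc
Atp6v0e (chr17:26676382-26676421, plus strand): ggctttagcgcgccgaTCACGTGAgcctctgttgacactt
Ctsa and Gla had 2 copies each in 1 promoter. In Ctsa they flank the start site, 13 bases before it and 4 bases past it, while in Gla they lie 228 and 195 bases before it. The cores of Atp6v0d1 and Atp6v0e begin within 4 bases of the start, counted as the others are to the first base of the core. In Cln3, Ctsa and Atp6v1a, the promoter with the core belongs to a start that lies inside the annotated gene, not at its outer end. The plain E-box CACGTG was found in 16 of the 40 genes against 8.09% of all genes, and the core with a further G before and C after it in 1, Cln3, against 0.370% of all genes. The palindromic estrogen response element, GGTCA and TGACC with any 3 bases between, searched on both strands, was found in 0 of the 40 genes and in 0.0740% of all genes, and this says only that these letters are not in these windows. The promoter of Atp6ap1, the gene with the smallest p of the 46, had no CLEAR core and no CACGTG.
Atp6ap1 (chrX:74296847-74297146, plus strand): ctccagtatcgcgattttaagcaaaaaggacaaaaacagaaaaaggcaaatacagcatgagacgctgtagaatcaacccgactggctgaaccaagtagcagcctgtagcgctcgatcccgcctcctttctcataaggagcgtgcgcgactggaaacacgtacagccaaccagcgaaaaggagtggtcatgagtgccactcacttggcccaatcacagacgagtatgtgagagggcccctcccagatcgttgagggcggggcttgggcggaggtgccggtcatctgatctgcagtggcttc

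Lysosomal transcripts were mostly slightly lower in OVX + E2 than in OVX muscle, and at a mean log2 value of 8 or more the size was like that of other genes as bright. Of the 46 genes, 41 were below 0 (89.1%, against 54.0% of all genes), with a median log2 difference of -0.15 against -0.01 over all genes. The differences ran from -0.34 for Atp6v1g1 to 0.14 for Atp6v1h, so that no gene of the list reached a difference of 1 log2 unit. At an unadjusted p under 0.05, 16 of 46 were lower (34.8%, against 13.0% of all genes) and 0 were higher (against 6.01%). At the unadjusted p of 0.001 used by the study, 1 was lower, Atp6ap1 (against 0.390% of all genes lower and 0.0220% higher). No gene had a Benjamini-Hochberg adjusted p under 0.05 in the limma fit over all probe sets, and the smallest adjusted p of the 46 was 0.308. The 3 arrays of OVX + E2 all lay below the 3 of OVX for 15 of the 46 genes (32.6%, against 13.6% of all genes), and the opposite held for 0 (against 10.5%). At the level of probe sets, 79 of the 105 were below 0 (against 52.3% of all probe sets), 23 were lower at an unadjusted p under 0.05 (against 9.43%) and 1 was higher (against 4.35%), and at 0.001 the single one of Atp6ap1 was lower (against 0.197%) and 0 were higher (against 0.0155%). Of the 31 genes with several probe sets, 14 had all of them below 0 and 16 had probe sets on both sides of 0, so that the count of 41 genes holds for the most variable probe set of each. At a mean of 8 or more, 48 of 54 lysosomal probe sets were below 0 (against 90.4% of all probe sets that bright). Of these 54, 18 were lower at an unadjusted p under 0.05 (against 32.8%). Of 13 genes with 2 or more probe sets at a mean of 8 or more, 9 had all of those below 0. The share of all genes is not given for that count. An exact permutation test of 3 against 3 arrays cannot give a two-sided p under 0.1. Because whole muscle was measured, fewer cells of a type and less RNA per cell cannot be told apart.

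**Figure D1:**
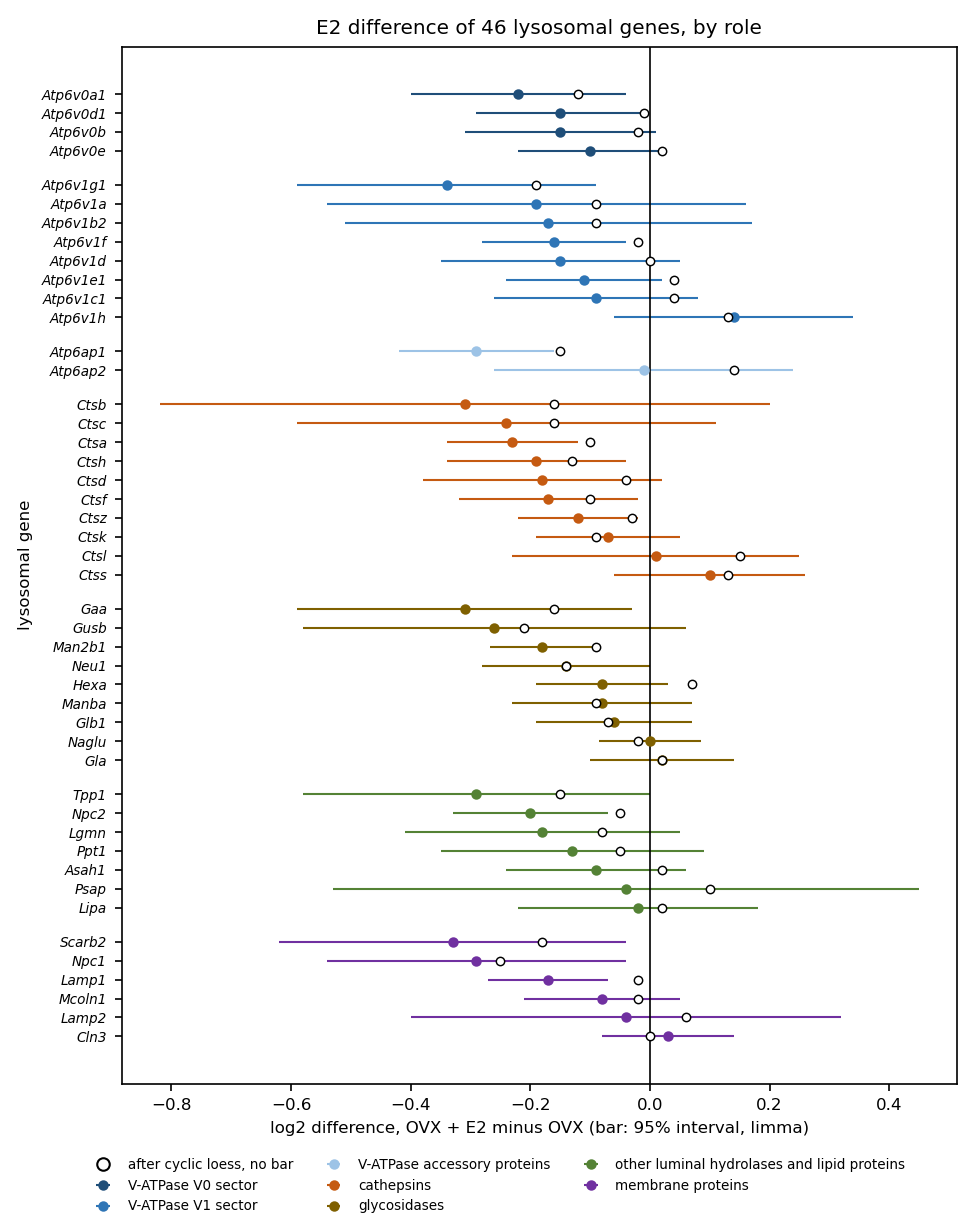
The log2 difference OVX + E2 minus OVX (x axis) is plotted for each of the 46 lysosomal genes, grouped by role; filled points are the deposited values with 95% confidence intervals, and open circles the values after cyclic loess. Most filled points lie left of 0, from -0.34 for Atp6v1g1 to 0.14 for Atp6v1h, and many intervals include 0.

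Brightness moved with the difference on these arrays, for all genes and for the lysosomal ones. Among genes with a mean under 7 the median difference was 0.02 for 3 lysosomal genes and 0.03 for all genes, and 0 of the 3 were lower at an unadjusted p under 0.05 (against 2.05% of all genes). From 7 to 8 the median was -0.08 for 12 lysosomal genes and -0.02 for all, with 10 of the 12 below 0 (against 59.6%) and 4 lower (33.3%, against 10.7%), so that in this range the lysosomal shares were above those of all genes. From 8 to 9 it was -0.16 for 14 and -0.13 for all, with 4 lower (28.6%, against 33.2%). In that range 14 of 14 lysosomal genes and 90.2% of all genes were below 0. From 9 to 10 both medians were -0.16, with 6 of 9 lysosomal genes lower (66.7%, against 42.5%). At 10 or more they were -0.17 for 8 lysosomal genes and -0.16 for all, with 2 of the 8 lower (against 44.6%). Of the 31 lysosomal genes with a mean of 8 or more, 12 were lower at an unadjusted p under 0.05 (38.7%, against 37.6% of all genes that bright). The list as a whole was bright, with 12 of the 46 genes in the top 5% of probe sets and 2 below the median. Relative to the median of their own brightness range, 27 of the 46 genes were lower. This count was 6 of 14 for the V-ATPase, 7 of 10 for cathepsins, 7 of 9 for glycosidases, 3 of 7 for the other luminal proteins and 4 of 6 for membrane proteins.

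**Figure D2:**
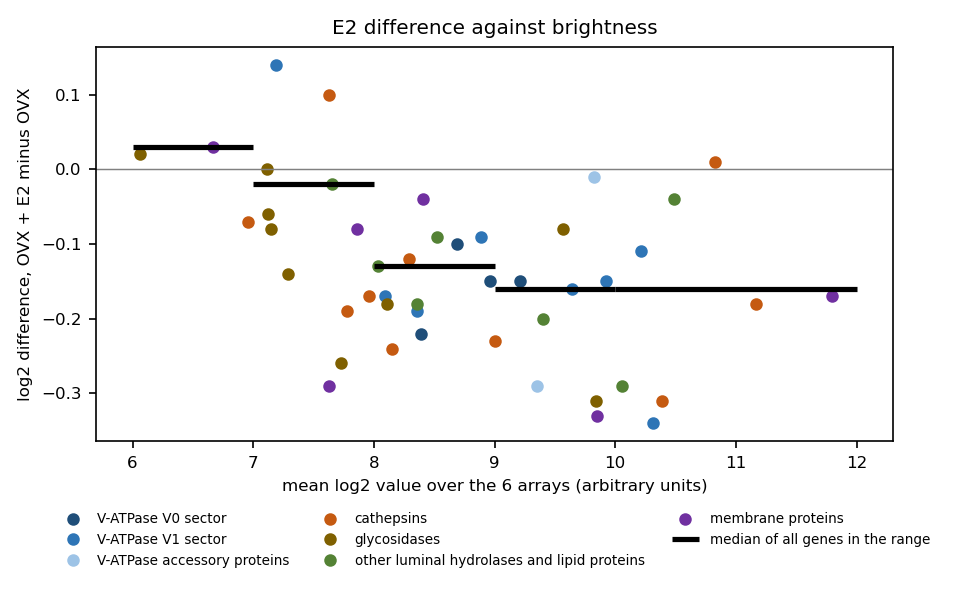
Each point is 1 lysosomal gene, with its mean log2 value over the 6 arrays on the x axis and its log2 difference OVX + E2 minus OVX on the y axis; black lines give the median of all genes in each brightness range, the lowest and highest range being drawn only as far as 6 and 12. The median of all genes moves from 0.03 below a mean of 7 to -0.16 above 10, and 27 of the 46 lysosomal genes lie below the line of their range.

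When the arrays were normalized further by cyclic loess, which removes a dependence on brightness between arrays, the lysosomal median was -0.04, with 31 of 46 genes below 0 (67.4%, against 50.8% of all genes). Then 3 genes were lower at an unadjusted p under 0.05 (Atp6ap1, Neu1 and Npc1; 6.52%, against 5.06% of all genes) and 0 were higher (against 4.60%). Quantile normalization gave a median of -0.03 and 2 lower genes, Atp6ap1 and Npc1, against 4.12% of all genes. The values below are as deposited unless the loess value is named.

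The proton pump had 14 measured genes, 13 below 0, with a median of -0.15 as deposited and of -0.01 after cyclic loess. Atp6ap1 encodes an accessory protein, Ac45, that helps to assemble the pump. It is annotated at chrX:74297097-74304721 and had 1 probe set. Its values were 9.22, 9.25 and 9.16 in OVX + E2, against 9.52, 9.40 and 9.57 in OVX. Each OVX + E2 array lay below each OVX array, and the difference was -0.29 (SE 0.053, 0.819-fold, unadjusted p = 9.40e-04, adjusted p = 0.308). It was -0.15 after cyclic loess (unadjusted p = 0.00851). The other accessory gene, Atp6ap2, the (pro)renin receptor, was at 9.68, 9.98 and 9.80 in OVX + E2, against 9.84, 10.00 and 9.66 in OVX. These groups overlapped fully, with a difference of -0.01 (SE 0.10) that was 0.14 after loess.

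The V1 sector is the part of the pump in the cytosol that splits ATP, and 7 of its 8 genes were below 0. Atp6v1g1, a subunit of the peripheral stalk, had the lowest difference of all 46 genes. It read 10.25, 10.14 and 10.04 in OVX + E2, against 10.37, 10.36 and 10.72 in OVX, with a difference of -0.34 (SE 0.11, unadjusted p = 0.0139). There was no overlap, but OVX replicate 3 stood well above the other OVX arrays, and without it the difference was -0.22. A second bright probe set of Atp6v1g1 gave -0.23 (SE 0.057, unadjusted p = 0.00467). Atp6v1f, in the central shaft, had 9.59, 9.63 and 9.47 in OVX + E2, against 9.76, 9.71 and 9.70 in OVX. All OVX + E2 arrays lay below all OVX arrays, the difference was -0.16 (SE 0.050, unadjusted p = 0.0142), and it was -0.02 after loess and 0.01 after quantile normalization. Atp6v1h, a regulatory subunit, was the only pump gene above 0, with 7.08, 7.44 and 7.26 in OVX + E2, against 7.08, 7.13 and 7.17 in OVX. Its arrays overlapped, with a difference of 0.14 (SE 0.086, unadjusted p = 0.153) and OVX + E2 replicate 2 as the highest array, without which it was 0.05. Without OVX + E2 replicate 1 it was 0.23 (unadjusted p = 0.0135). A brighter probe set of Atp6v1h gave 0.05 (unadjusted p = 0.595), and its dimmest gave 0.00. Atp6v1a and Atp6v1b2, of the ring that splits ATP, had differences of -0.19 and -0.17, both with overlapping groups. Atp6v1d, Atp6v1e1 and Atp6v1c1, of the rotor shaft and the stalks, had differences of -0.15, -0.11 and -0.09, none with an unadjusted p under 0.05.

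The V0 sector lies in the membrane and carries the protons, and 4 of its 4 measured genes were below 0. Atp6v0a1, the subunit that forms the path of the protons with the proteolipid ring, had 8.32, 8.25 and 8.26 in OVX + E2, against 8.38, 8.43 and 8.68 in OVX. The groups did not overlap, and the difference was -0.22 (SE 0.078, unadjusted p = 0.0235). It was -0.13 without OVX replicate 3, and the unadjusted p was 0.0648 and 0.0601 without OVX + E2 replicates 2 and 3. The other, dimmer probe sets of Atp6v0a1 gave 0.01, -0.14 and -0.08, none with an unadjusted p under 0.05. Atp6v0d1, which links ring and shaft, had 9.11, 9.26 and 9.06 in OVX + E2, against 9.34, 9.24 and 9.28 in OVX. OVX + E2 replicate 2 overlapped the OVX arrays, the difference was -0.15 (SE 0.060, unadjusted p = 0.0445), and it was -0.01 after loess. Atp6v0b, of the ring, and Atp6v0e had differences of -0.15 and -0.10 with unadjusted p-values of 0.0648 and 0.0919.

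Of 10 cathepsins, the proteases of the lysosome, 8 were below 0, and the median was -0.17, or -0.09 after cyclic loess. Ctsa, a serine carboxypeptidase that also protects beta-galactosidase and neuraminidase from degradation, had 8.94, 8.91 and 8.80 in OVX + E2, against 9.15, 9.11 and 9.07 in OVX. Every OVX + E2 array was below every OVX array, with a difference of -0.23 (SE 0.049, unadjusted p = 0.00202, adjusted p = 0.308), which was -0.10 after loess. A second, dimmer probe set of Ctsa did not show this, at 0.06 (unadjusted p = 0.169). Ctsh, an aminopeptidase, had 7.59, 7.79 and 7.70 in OVX + E2, against 7.90, 7.93 and 7.80 in OVX. The groups nearly touched without overlapping, and the difference was -0.19 (SE 0.062, unadjusted p = 0.0202). A second, dimmer probe set of Ctsh gave -0.08 with overlapping groups (unadjusted p = 0.288). Ctsz, a carboxypeptidase, and Ctsf, a cysteine protease, were also lower at an unadjusted p under 0.05, with differences of -0.12 and -0.17. A dimmer probe set of Ctsf gave -0.00, and the others of Ctsz gave -0.13 and -0.06.

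Ctsb, a major cysteine cathepsin, was read by 5 probe sets. The most variable of them had 10.32, 10.50 and 9.87 in OVX + E2, against 10.64, 10.13 and 10.85 in OVX, with overlapping groups and a difference of -0.31 (SE 0.22, unadjusted p = 0.197). The brightest had 10.94, 10.96 and 10.97 in OVX + E2, against 11.19, 11.07 and 11.25 in OVX. There the groups did not overlap, and the difference was -0.21 (SE 0.053, unadjusted p = 0.00454). The dimmest of the 5 was higher, by 0.10 (unadjusted p = 0.0256), so that its probe sets did not all lie on the same side of 0. Ctsd, the aspartic cathepsin whose promoter window is shown above, had 11.13, 11.07 and 11.03 in OVX + E2, against 11.38, 11.06 and 11.33 in OVX. OVX replicate 2 lay among the OVX + E2 arrays, and the difference was -0.18 (SE 0.086, unadjusted p = 0.0701). Ctsc, which activates granule proteases, and Ctsk, best known from bone-resorbing osteoclasts, had differences of -0.24 and -0.07, with unadjusted p-values of 0.15 and 0.211. Ctsl, a cysteine cathepsin known from muscle wasting, was at 0.01 (SE 0.10), and Ctss, a cathepsin of antigen-presenting cells, at 0.10 (SE 0.069, unadjusted p = 0.204).

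Macrophages are rich in cathepsins, and their markers were read on the same arrays. The mean log2 level of 15 macrophage markers, 15 of 15 measured, was 7.29 to 7.39 in OVX + E2 and 7.26 to 7.43 in OVX. Of these markers 0 were in the top 5% of probe sets, 3 were below the median, and 0 passed an unadjusted p of 0.05, with a median difference of -0.01. Fibroblast markers were below 0 for 8 of 8, with a median of -0.26, and Dcn and Pdgfra were lower at an unadjusted p under 0.05. Their mean level was 8.85 to 9.07 in OVX + E2 and 8.93 to 9.36 in OVX, and their part in the lysosomal values was not tested. Without both arrays numbered 3, more markers were lower at an unadjusted p under 0.05 (against 11.1% of all genes). These were 4 of 15 macrophage markers with a median of -0.08, 6 of 8 fibroblast markers with a median of -0.32, and 4 of 8 endothelial markers with a median of -0.33, against 0 of 8 with a median of -0.08 when all arrays were kept.

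Of 9 glycosidases, which take apart sugar chains, 8 were below 0, and the median was -0.08 as deposited and -0.09 after cyclic loess. Man2b1, the lysosomal alpha-mannosidase, had 8.07, 8.01 and 8.01 in OVX + E2, against 8.21, 8.22 and 8.18 in OVX. The arrays within each group lay close together and the groups did not overlap, with a difference of -0.18 (SE 0.037, 0.885-fold, unadjusted p = 0.00213, adjusted p = 0.308). After loess it was -0.09. A second, dimmer probe set of Man2b1 gave -0.07 with overlapping groups (unadjusted p = 0.154). Gaa, the acid alpha-glucosidase that digests glycogen and is deficient in Pompe disease, had 9.68, 9.66 and 9.71 in OVX + E2, against 9.88, 9.79 and 10.29 in OVX. There was no overlap, the difference was -0.31 (SE 0.12, unadjusted p = 0.0364), and OVX replicate 3 set much of it, for without that array the difference was -0.16. Without any 1 of the OVX + E2 arrays the unadjusted p of Gaa lay between 0.0656 and 0.0865. A second probe set of Gaa gave -0.17 with overlapping groups (unadjusted p = 0.0891). Neu1, the neuraminidase held together with Ctsa, was lower as well, with a difference of -0.14 (SE 0.060, unadjusted p = 0.045) that was again -0.14 after loess. Its other 2 probe sets did not show this, at 0.02 (unadjusted p = 0.582) and -0.01 (unadjusted p = 0.848). Gusb, beta-glucuronidase, had a difference of -0.26 with wide spread (SE 0.14, unadjusted p = 0.0945). Hexa, Manba, Glb1 and Naglu had differences of -0.08, -0.08, -0.06 and -0.00. Gla, the alpha-galactosidase lost in Fabry disease and the dimmest gene of the list, had 6.15, 6.01 and 6.05 in OVX + E2, against 6.06, 5.98 and 6.11 in OVX. Its groups overlapped, with a difference of 0.02 (SE 0.053), and its promoter holds the 2 CLEAR cores shown above.

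**Figure D3:**
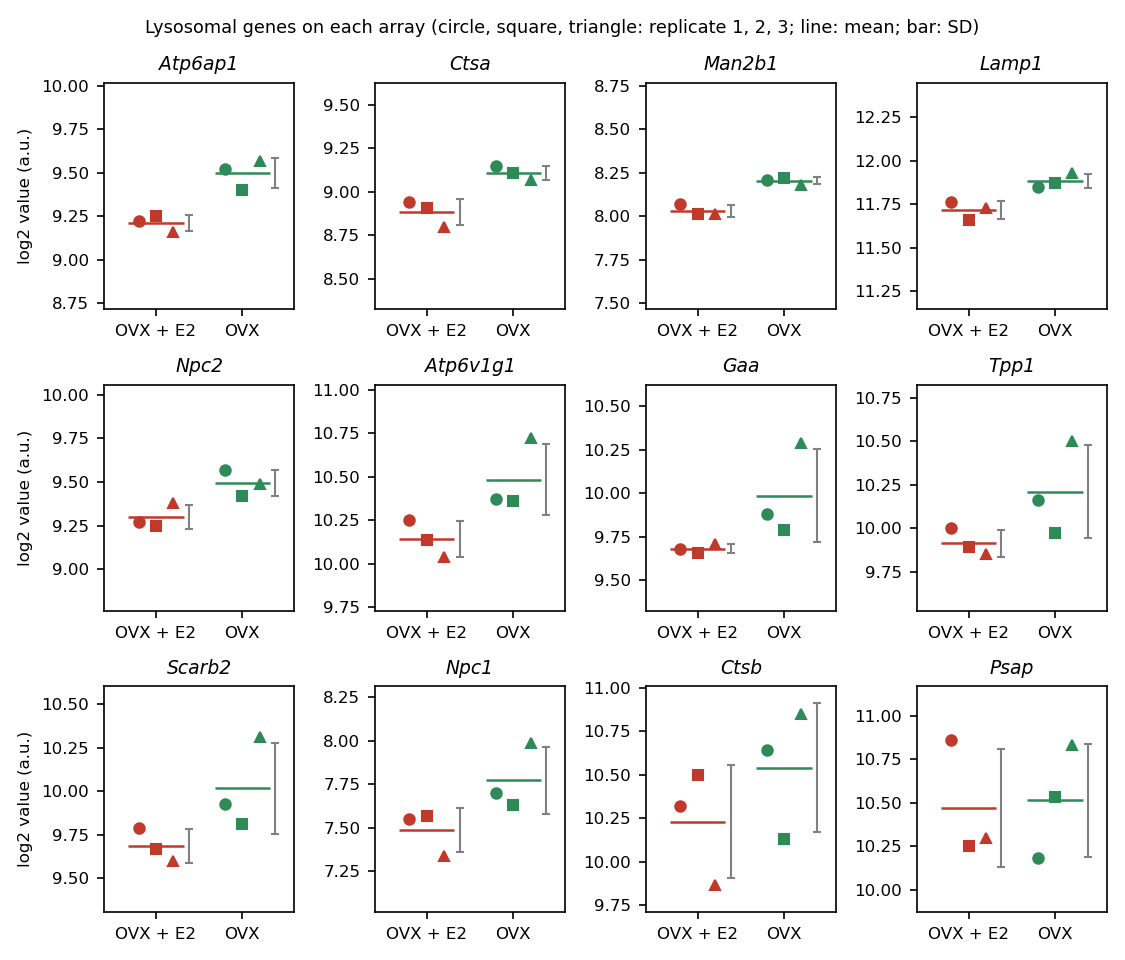
Log2 values (y axis) of 12 lysosomal genes on each array, OVX + E2 left and OVX right; symbols mark replicates, lines the mean and bars the SD (n = 3 each). Atp6ap1, Ctsa, Man2b1 and Lamp1 show separate, narrow groups, while in Gaa, Tpp1, Scarb2 and Npc1 the OVX replicate 3 array stands above the rest.

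The remaining 7 luminal proteins were all below 0, with a median of -0.13 and 1 lower at an unadjusted p under 0.05 (14.3%, about the 13.0% of all genes). This was Npc2, which hands cholesterol to Npc1, with 9.27, 9.25 and 9.38 in OVX + E2, against 9.57, 9.42 and 9.49 in OVX. The groups did not overlap, and the difference was -0.20 (SE 0.055, unadjusted p = 0.00859), or -0.05 after loess. Another bright probe set of Npc2 gave -0.16 (unadjusted p = 0.0381), and its dim ones gave -0.04 and 0.03. Tpp1, a tripeptidyl peptidase, had 10.00, 9.89 and 9.85 in OVX + E2, against 10.16, 9.97 and 10.50 in OVX. OVX replicate 2 fell between the OVX + E2 arrays, and the difference was -0.29 (SE 0.13, unadjusted p = 0.0506). It was -0.15 without OVX replicate 3 and -0.41 without OVX replicate 2 (unadjusted p = 0.00675). A dimmer probe set of Tpp1 gave -0.18 (unadjusted p = 0.0131). Psap, the precursor of the saposins that assist glycolipid breakdown, had 10.86, 10.25 and 10.30 in OVX + E2, against 10.18, 10.53 and 10.83 in OVX. The spread within each group was far larger than the difference of -0.04 (SE 0.21), and its other probe set gave 0.08. Lgmn, an asparaginyl endopeptidase, Ppt1, a palmitoyl thioesterase, Asah1, acid ceramidase, and Lipa, acid lipase, had differences of -0.18, -0.13, -0.09 and -0.02, none with an unadjusted p under 0.05. The other 4 probe sets of Ppt1 were above 0, at 0.01, 0.03, 0.10 and 0.04.

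Of 6 measured membrane proteins, 5 were below 0, with a median of -0.12, or -0.02 after cyclic loess. Lamp1, a main glycoprotein of the lysosomal membrane and the brightest gene of the list, had 11.76, 11.66 and 11.73 in OVX + E2, against 11.85, 11.87 and 11.93 in OVX. The groups did not overlap, and the difference was -0.17 (SE 0.043, 0.891-fold, unadjusted p = 0.00629). After loess it was -0.02. Npc1, which exports cholesterol, had 7.55, 7.57 and 7.34 in OVX + E2, against 7.70, 7.63 and 7.99 in OVX. All OVX arrays were higher, with a difference of -0.29 (SE 0.11, unadjusted p = 0.0293), and it was -0.25 after loess (unadjusted p = 0.0414). Without OVX replicate 3 it was -0.18 (unadjusted p = 0.06). Scarb2, which carries beta-glucocerebrosidase to lysosomes, had 9.79, 9.67 and 9.60 in OVX + E2, against 9.93, 9.81 and 10.31 in OVX. Again OVX replicate 3 was the highest array, and the difference was -0.33 (SE 0.12, unadjusted p = 0.0298) with it and -0.19 without it. The other bright probe set of Scarb2 gave -0.13 with overlapping groups (unadjusted p = 0.233). Lamp2, needed for fusion with autophagosomes, had a difference of -0.04 (SE 0.15). Mcoln1, a calcium channel, and Cln3 had differences of -0.08 and 0.03.

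The E2 differences of genes with a CLEAR core lay within the range of those without. Of the 8, which were all measured, 6 were below 0 and 2 were lower at an unadjusted p under 0.05 (Ctsa and Atp6v0d1), with a median of -0.12 and a range from -0.23 to 0.03. Of the 30 measured genes with a promoter entry and no core, 28 were below 0 and 11 were lower, with a median of -0.15 and a range from -0.33 to 0.10. Of all genes 13.0% were lower, and of those with a mean of 8 or more 37.6%. This comparison is a description and was not tested.

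A pair of arrays, OVX replicate 3 and OVX + E2 replicate 3, often gave the extreme value. OVX + E2 replicate 3 was the lowest of the 6 arrays for 22 of the 46 lysosomal genes (47.8%, against 26.6% of all genes), and OVX replicate 3 was the highest for 18 (39.1%, against 23.0%). Among genes with a mean of 8 or more, these shares were 58.1% against 51.0% and 41.9% against 43.5%. The same arrays were at the ends of the level of 10 fast-fibre genes, whose mean was 11.45 to 13.19 in OVX + E2 and 13.02 to 13.63 in OVX. Genes differed in this, and Myh4 had 13.35, 12.60 and 7.78 in OVX + E2, against 13.07, 13.23 and 13.90 in OVX. Tnnc2, another of the 10, had 13.88, 13.72 and 13.63 in OVX + E2, against 13.87, 13.89 and 13.93 in OVX. With the mean level of the 10 genes as a covariate, 8 lysosomal genes were lower at an unadjusted p under 0.05 and the median difference was -0.10. The share of all genes is not given for that fit, so that this count lacks a background. The median deviation of the 46 genes from their own mean was -0.06, -0.03 and -0.12 in OVX + E2, against 0.09, 0.02 and 0.09 in OVX. So each OVX + E2 array was below each OVX array in this median, with OVX replicate 2 nearest to OVX + E2. Without both arrays numbered 3, the median difference was -0.11, and 13 genes were lower at an unadjusted p under 0.05, against 11.1% of all genes. Of these, 10 were among the 16 found with all arrays. Leaving out each array in turn, 7 genes were lower at an unadjusted p under 0.05 every time: Atp6ap1, Atp6v1f, Atp6v1g1, Ctsa, Lamp1, Man2b1 and Npc2. Of all genes, 6.23% did so. The means of these 7 genes ran from 8.11 to 11.80. The share among genes as bright is not given, so that 6.23% is not a background of like brightness. The other 9 of the 16 had an unadjusted p of 0.05 or more without at least 1 of the arrays.

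**Figure D4:**
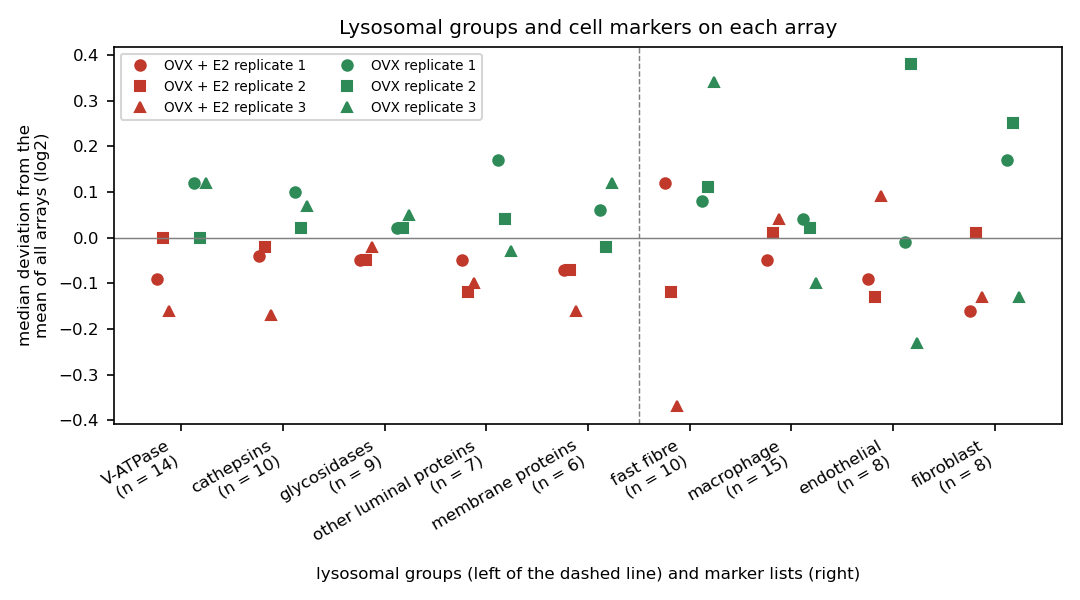
Median deviation from the mean over the 6 arrays (y axis, log2) of the genes of each lysosomal role (left of the dashed line) and of each marker list (right), with 1 symbol per array. The V-ATPase genes lie at -0.09, 0.00 and -0.16 in OVX + E2, against 0.12, -0.00 and 0.12 in OVX, and the macrophage markers at -0.05, 0.01 and 0.04 in OVX + E2, against 0.04, 0.02 and -0.10 in OVX.

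Other lysosomal genes were examined in 6 lists with 101 of 113 genes measured. Of these, 74 were below 0 (73.3%, against 54.0% of all genes), with a median of -0.06, and 21 were lower (20.8%, against 13.0%) and 2 higher (against 6.01%) at an unadjusted p under 0.05. After cyclic loess, 6 were lower (5.94%, against 5.06%) and 2 higher (against 4.60%), close to the shares of all genes. Of 13 genes that sort enzymes to lysosomes, 12 were below 0 and 5 were lower (38.5%, against 13.0% of all genes), among them the adaptor Gga1 (-0.14, unadjusted p = 0.00463), the mannose 6-phosphate receptor M6pr (-0.19, unadjusted p = 0.0101) and Cln8 (-0.18, unadjusted p = 0.0254). Of 15 genes for CLEAR-binding factors and for proteins that anchor mTORC1 to lysosomes, 12 were below 0 (80.0%, against 54.0% of all genes) and 3 were lower (against 13.0%). These shares of all genes are not a background of like brightness, because the median of the means of the 15 genes was 8.97. Among all genes with a mean from 8 to 9, 90.2% were below 0 and 33.2% were lower. With cyclic loess, 7 of the 15 were below 0 (against 50.8% of all genes), and their median was 0.01. Tfeb, the best known CLEAR-binding factor, had 9.05, 9.06 and 8.86 in OVX + E2, against 9.19, 9.28 and 9.47 in OVX. Its arrays fell into separate ranges, and the difference was -0.33 (SE 0.086, unadjusted p = 0.00661, adjusted p = 0.308), or -0.19 after loess (unadjusted p = 0.0383). Lamtor4 and Lamtor5, subunits of the Ragulator anchor, were the other lower genes, at -0.23 and -0.14, and the related factors Tfe3 and Mitf were at -0.08 and -0.04 with overlapping groups.

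Of 30 further luminal hydrolases and activators, 18 were below 0 and 4 were lower (13.3%, about the 13.0% of all genes), led by Pcyox1 (-0.19), Fuca1, a fucosidase (-0.18), and Smpd1, acid sphingomyelinase (-0.31). The 1 higher gene of that list was Ctsw, a protease of cytotoxic lymphocytes, at 0.11 (unadjusted p = 0.0198). Of 29 further membrane proteins and transporters, 24 were below 0 and 6 were lower (20.7%, against 13.0% of all genes), led by Sidt2 (-0.15), Spns1 (-0.19) and Ostm1 (-0.19). Of 5 cathepsin inhibitors, 4 were below 0. Cst6 (-0.17) and Serpinb6a (-0.19) were lower and Cst7 (0.10) was higher. The 9 alternative V-ATPase subunits, several of them used in kidney, bone or testis, had a median of 0.01. Atp6v0a2 (-0.17, unadjusted p = 0.00483) was the 1 lower gene (11.1%, against 13.0% of all genes).

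**Figure D5:**
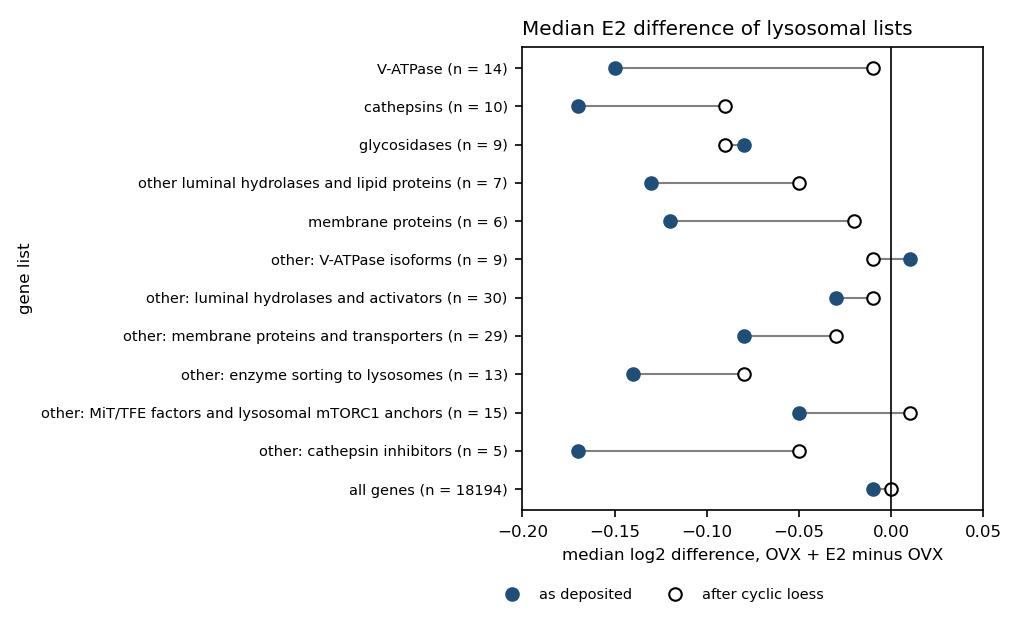
Median log2 difference OVX + E2 minus OVX (x axis) of each lysosomal list, as deposited (filled) and after cyclic loess (open), with all genes at the bottom. The V-ATPase median is at -0.15 as deposited and at -0.01 after loess, while the glycosidase median is at -0.08 and -0.09.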

How the data were processed

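RNA of 3 OVX + E2 and 3 OVX samples was hybridized to 1 Affymetrix mouse genome array each. The deposited values are log2 values in arbitrary units, made by the authors in R 2.14.2 through background correction, the variance stabilization and normalization method, and median polish of the probes in a probe set. Such values compress differences of dim probe sets. Scans and detection calls were not used here. Of the 45101 probe sets, 34958 had 1 gene symbol in the platform annotation, 932 several and 9211 none, and 64 were controls.

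Samples were grouped by the treatment in their labels. The model of limma 3.58.1 (lmFit, eBayes; R 4.3.3) was fitted to all probe sets without covariates and two-sided, after the scripts had been tested on simulated data. Adjusted p-values are Benjamini-Hochberg values over all probe sets. The most variable probe set (interquartile range) stood for a gene. Counts and tables were made with Python 3.11.15 and pandas 2.3.3.

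The genes and lists were chosen with earlier results of these data known, so no list was tested. Values on every array were to be given for genes at an unadjusted p of 0.001, the 2 smallest p-values in each of 7 roles, the largest difference each way, and the brightest and dimmest gene, with up to 3 genes for each other list. Ctsb, Ctsd, Psap and Scarb2 were added after their values were seen, as were Tfe3, Mitf and Ctsw. Alternatives were 3 normalizations, a brightness filter, the replicate number as a block, a variance trend, a fast-fibre covariate, the brightest probe set per gene, and leaving out arrays.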

Additional observations from a re-analysis of the deposited data

How the results depend on the processing

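The negative direction of the list medians held under most alternatives, while the number of lower genes depended on the normalization. Of the 46 genes, 16 were lower at an unadjusted p under 0.05 as deposited, 2 after quantile normalization, 3 after cyclic loess, 8 with the fast-fibre level as a covariate, and 10 to 21 without 1 array. Shares of all genes are not given for the fits with the covariate or without 1 array, so that the counts of these fits lack a background. Atp6ap1 passed the unadjusted p of 0.001 as deposited, after median centring and without OVX replicate 2. It has 1 probe set, so that the brightest probe set per gene only repeats the deposited fit. The count of the 46 genes at that threshold was 0 under quantile normalization, cyclic loess, the brightness filter, the replicate block and the variance trend. It was also 0 with the covariate and without both arrays numbered 3, and 0 to 1 without 1 array. Over all probe sets the count at that threshold was 96, against 31 after quantile normalization, 31 after cyclic loess, 164 after median centring, 30 with the brightness filter, 21 with the replicate block, 39 with the variance trend, 7 with the covariate, 37 without both arrays numbered 3, and 19 to 76 without 1 array (19 without OVX + E2 replicate 3). Other lysosomal genes numbered 21 lower, against 5 after quantile normalization, 6 after cyclic loess and 11 with the covariate.

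The median of all 46 genes was -0.15, against -0.03 after quantile normalization, -0.04 after cyclic loess and -0.10 with the covariate. The V-ATPase median of -0.15 was 0.01 after quantile normalization and -0.01 after cyclic loess. The cathepsin median of -0.17 was -0.08 after quantile normalization, -0.09 after cyclic loess, -0.06 with the covariate and -0.07 without both arrays numbered 3. The glycosidase median of -0.08 was -0.10 after median centring, -0.11 with the brightness filter, -0.12 with the covariate and -0.13 without both arrays numbered 3. The other luminal proteins were at -0.04 after quantile normalization, and the membrane proteins at 0.00 after quantile normalization and -0.02 after cyclic loess. Without 1 array the medians ranged from -0.17 to -0.11 for all genes, -0.20 to -0.10 for the V-ATPase, -0.18 to -0.13 for cathepsins, -0.11 to -0.07 for glycosidases, -0.18 to -0.09 for the other luminal proteins and -0.17 to -0.12 for membrane proteins. Of single genes, Atp6ap2 (-0.01) was at 0.16 after quantile normalization and 0.14 after cyclic loess, and at 0.06 and 0.07 without OVX + E2 replicate 1 and OVX replicate 2. Atp6v1f (-0.16) was at 0.01 after quantile normalization, and Gla (0.02) at -0.02 and -0.01 without OVX + E2 replicate 1 and OVX replicate 2. The cause of these changes was not tested.

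The arrays share replicate numbers, but same-numbered arrays did not deviate together from their group means (correlations of -0.125, -0.2 and -0.342). These deviations also hold shifts of whole arrays. The fast-fibre genes, for example, had median deviations of -0.37 in OVX + E2 replicate 3 and 0.34 in OVX replicate 3. Such shifts could mask a pairing, so that these correlations cannot show whether the numbers pair the samples. With the replicate block, 13 of the 46 genes were lower at an unadjusted p under 0.05, 11 of them among the 16, and the median of all 46 genes was again -0.15. The share of all genes is not given for the replicate block either. With 3 arrays per group and no detection calls, small differences of dim genes such as Gla could not be resolved.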
